A study of Mus musculus with 24 samples.

Results

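The 390 promoters described here carried an H3K27me3 peak in all 3 vehicle libraries of an EZH2 inhibitor experiment in cultured mouse cerebellar granule neurons (CGNs) and no peak in any of the 3 libraries treated with the inhibitor GSK-126. They were chosen by the deposited peak calls themselves, a promoter being the 6 kb centred on the 5′ end of a protein-coding gene, and a peak counting when it overlapped it by at least 1 bp. They are 20.6% of the 1893 promoters that had a peak in all 3 vehicle (DMSO) libraries, and 1.78% of all 21938 promoter windows. Of the rest of the 1893, 733 promoters (38.7%) kept a peak in all 3 GSK-126 libraries and 770 had a peak in 1 or 2 of them. The promoters that lost every peak are called members below, and the 733 are called kept promoters. Of the 390, 364 had a window of their own and 26 shared part of a window with another member, such as the divergent pair Evc and Evc2, so that 1 peak can count for both.

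The assay was CUT&RUN, where a nuclease tethered to an H3K27me3 antibody releases the marked chromatin for sequencing. The CGNs were cultured from granule neuron precursors of early postnatal CD1-IGS mouse pups, and nothing in the labels separates the cell types of a culture. The untreated time course held 3 libraries for each of 4 harvest days, named DIV1, DIV3, DIV5 and DIV7 after the number of days in vitro. The study's culture method, given for CGNs in general and not only for the time course, adds 1 µM AraC at DIV2. AraC stops dividing cells, and the DIV1 cells had been harvested before it was added. In the drug experiments the compound or DMSO was added at DIV1 and the cells were harvested at DIV5. GSK-126 was used at 5 µM with its own 3 DMSO libraries, and GSK-J4 at 1 µM with another 3 DMSO libraries. GSK-J4 is directed against KDM6 demethylases, but the study found no H3K27me3 change with it at this dose, by western blot or CUT&RUN. The authors concluded that its usable dose range in neurons is too narrow. Whether these enzymes were blocked in the cultures was not tested here.

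H3K27me3 is written by Polycomb repressive complex 2, whose catalytic subunit is EZH2 or its relative EZH1, and it is removed by the demethylases KDM6A and KDM6B. At promoters rich in CpG dinucleotides the mark accompanies silencing of genes for other lineages and for other stages of the same lineage. In the developing cerebellum, granule neuron precursors proliferate under Sonic hedgehog and the transcription factor Atoh1 before they leave the cell cycle, and the mark is known to be redistributed as they mature.

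The 24 peak lists held 247296 peaks, with 4740 to 22832 peaks covering 1.07 to 6.57 Mb of the genome per library. A promoter without a peak lies below the caller's threshold and is not shown to lack the mark. In the experiment that chose the members the DMSO lists covered 3.29 to 4.23 Mb and the GSK-126 lists 1.07 to 2.00 Mb. GSK-126 replicate 3 stood apart from all other libraries, since 47.2% of the promoters it marked were marked nowhere else in the series. That share was 5.66% or less for each of the other 23. Choosing without that library gave 470 promoters, without GSK-126 replicate 1 it gave 625 and without DMSO replicate 3 it gave 590. Each of these sets had to hold all 390, since leaving out a library only loosens the rule. On lists cut to an equal summed length in this experiment the same rule gave 32 promoters, of which 22 were members (5.64% of the members and 68.8% of the 32). Membership therefore depended on how much of each library was called. Each level below is a bulk value, in which fewer marked cells and less of the mark per cell cannot be told apart.

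Sequences of 6 members are shown first, since they are the DNA under the peaks that were lost. Each is the stretch covered by a peak in all 3 DMSO libraries, called the shared core, or the 300 bases nearest its centre where the core is longer. They are read 5′ to 3′ on the gene's strand from the RefSeq copy of GRCm38, the assembly that mm10 also names, with CpG dinucleotides in capitals. The Atoh1 core, chr6:64729549-64729848 (+), lies within the coding exon with its centre 574 bp downstream of the 5′ end and holds 20 CpGs. The Gli2 core, chr1:119052006-119052080 (-), is a 75 bp intronic stretch centred 1576 bp downstream and holds 0. The Itpkb stretch, chr1:180331812-180332111 (+), is intronic, is centred 1477 bp downstream and comes from the longest core of any member, 998 bp. Those of Adgra2, chr8:27086435-27086734 (+), and Dock1, chr7:134671270-134671569 (+), are also intronic, centred 1002 and 766 bp downstream. C1ql3, chr2:13010386-13010685 (-), has the densest of the 6, with 31 CpGs in coding sequence centred 1270 bp downstream.
Atoh1: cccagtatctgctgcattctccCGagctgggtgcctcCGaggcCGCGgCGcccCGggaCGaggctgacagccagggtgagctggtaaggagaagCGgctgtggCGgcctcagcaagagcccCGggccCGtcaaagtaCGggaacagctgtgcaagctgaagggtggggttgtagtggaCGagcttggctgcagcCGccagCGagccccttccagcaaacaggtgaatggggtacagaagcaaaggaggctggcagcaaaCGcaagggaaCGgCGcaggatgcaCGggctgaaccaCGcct
Gli2: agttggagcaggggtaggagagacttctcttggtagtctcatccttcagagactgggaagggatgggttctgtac
Itpkb: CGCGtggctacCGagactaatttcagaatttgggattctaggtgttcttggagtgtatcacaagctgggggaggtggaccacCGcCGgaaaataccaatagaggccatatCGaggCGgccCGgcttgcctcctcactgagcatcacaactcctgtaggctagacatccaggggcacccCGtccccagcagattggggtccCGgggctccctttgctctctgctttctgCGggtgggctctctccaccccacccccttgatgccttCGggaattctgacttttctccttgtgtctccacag
Adgra2: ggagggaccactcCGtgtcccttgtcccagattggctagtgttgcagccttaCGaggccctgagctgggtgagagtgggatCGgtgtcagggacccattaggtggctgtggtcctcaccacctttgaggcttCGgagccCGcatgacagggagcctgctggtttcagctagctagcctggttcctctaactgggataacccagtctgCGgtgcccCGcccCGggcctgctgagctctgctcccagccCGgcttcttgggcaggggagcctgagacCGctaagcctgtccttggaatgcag
C1ql3: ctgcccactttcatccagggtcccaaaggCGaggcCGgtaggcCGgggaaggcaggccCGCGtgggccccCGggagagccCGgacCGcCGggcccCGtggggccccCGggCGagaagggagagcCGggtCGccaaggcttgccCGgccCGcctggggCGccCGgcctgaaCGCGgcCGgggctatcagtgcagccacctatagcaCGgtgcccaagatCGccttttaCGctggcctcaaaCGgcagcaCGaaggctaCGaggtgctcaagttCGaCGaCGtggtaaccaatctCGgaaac
Dock1: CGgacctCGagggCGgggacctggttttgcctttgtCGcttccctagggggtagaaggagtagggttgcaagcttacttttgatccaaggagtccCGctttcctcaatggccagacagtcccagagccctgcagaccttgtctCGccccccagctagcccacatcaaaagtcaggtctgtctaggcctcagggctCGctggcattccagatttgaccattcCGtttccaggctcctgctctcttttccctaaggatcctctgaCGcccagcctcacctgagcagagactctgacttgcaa

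The cores of the members were short and resembled those of the kept promoters in composition. A shared core was found at 254 of the 390 members and 657 of the 733 kept promoters, with a median length of 168 bp (range 2 to 998) and 384 bp (10 to 3735). At the other 136 members the 3 DMSO libraries had peaks in the window that shared no base. In the 300 bp around the core the median GC content was 61.7% in members and 61.0% in kept promoters, and both had 5.67 CpGs per 100 bp. Over the 300 bp around the 5′ end the members had 7.00 CpGs per 100 bp, the kept promoters 6.33 and all promoters 4.67. The letters CCTGCTG, the core of the motif bound by ZIC factors, stood on either strand in 10.2% of the members' core windows and in 15.7% of the kept promoters', and appear at 2 places in the Adgra2 stretch. In the 300 bp around the 5′ end they were in 10.0% of members, 13.9% of kept promoters and 11.6% of all promoters. The palindromic E-box letters CAGCTG were in 21.7% of the members' core windows and 19.6% of the kept promoters', with 1 match in the Atoh1 stretch. These matches are descriptions of letters, not of binding.

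Members began with narrower peaks than the promoters that kept a peak. The values in this paragraph come from the DMSO libraries that chose the members and are a description. The median coverage, the percentage of the 6 kb window under peaks averaged over the 3 DMSO libraries, was 6.79% for members and 13.9% for kept promoters. The strongest peak of a member was 241 to 320 bp long (median, by library), against 534 to 618 bp at kept promoters, and the typical window held 1 peak against 2. The median −log10 q of the strongest peak was 1.56 against 1.70, which placed it at percentile 61.4 of its library's peaks against 73.2. Fold enrichment went the other way, with 3.87 at members and 3.41 at kept promoters. The strongest peak lay within 1 kb of the 5′ end at 77.4% of members and 76.9% of kept promoters, and downstream of it at 76.2% and 83.4%. At the edge of the rule, Srsf12, a splicing factor gene, and Gbx1, a homeobox gene, were members through a DMSO peak with a −log10 q of 1.02, while Tmem37 and Ank2 stayed outside through a GSK-126 peak of 1.01 and 1.03.

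When the 1893 promoters were split into quintiles by DMSO coverage, members made up 38.5% of the lowest quintile, then 28.0%, 20.6%, 11.1% and 4.75% of the highest. The kept promoters made up 16.9% of the lowest and 68.9% of the highest quintile. Still, 18 members were in the highest quintile and 42 in the one below it. Ranked by the percentile of the strongest peak the split was flatter, and members made up 32.5% of the lowest and 11.1% of the highest quintile.

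**Figure D1:**
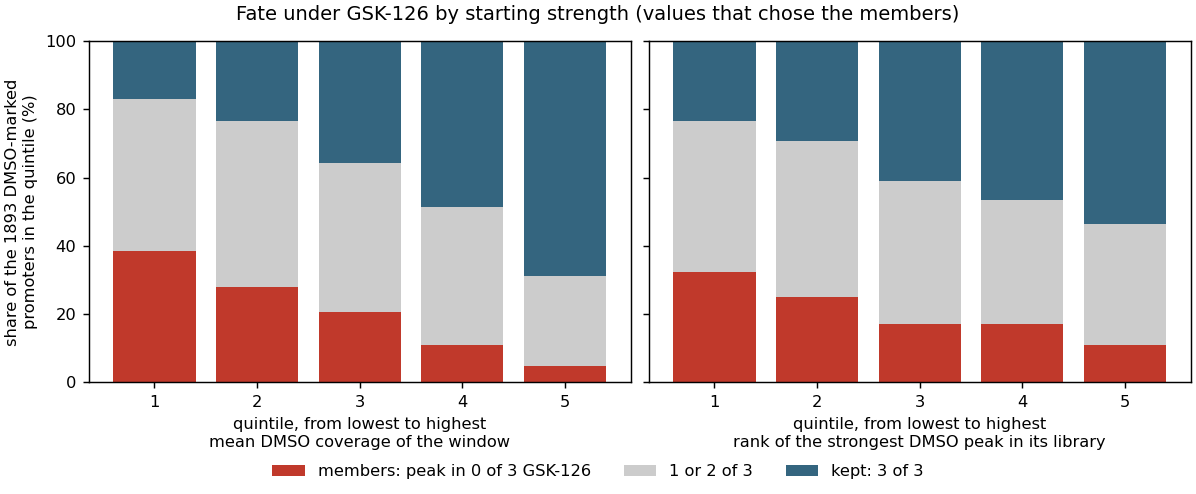
Share of the 1893 promoters with a peak in all 3 DMSO libraries that were members (0 of 3 GSK-126 libraries), had a peak in 1 or 2 GSK-126 libraries, or were kept (3 of 3), by quintile of DMSO coverage (left) and of the rank percentile of the strongest DMSO peak (right). The members' share falls from 38.5% to 4.75% across the coverage quintiles and from 32.5% to 11.1% across the rank quintiles, values that the choice of members used.

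The 10 members with the widest DMSO coverage had varied functions. Itpkb, a kinase that phosphorylates inositol trisphosphate, had DMSO coverage of 24%, 29.5% and 22.9%. P2ry1, a purinergic receptor, had 19.8%, 27% and 27.4%. Adgra2, an adhesion receptor known for Wnt7 signalling in brain vessels, had 14.6%, 19.4% and 34.6%. All 3 therefore had coverage above the kept promoters' median in every DMSO library, and 0 in all 3 GSK-126 libraries. The others among the 10 widest were Cnih3, an auxiliary subunit of AMPA receptors, C1ql3, a secreted synaptic protein, Dock1, an activator of the GTPase Rac, the matrix genes Pxdn and Col18a1, Eif4ebp1, an inhibitor of translation initiation, and Rgmb, a BMP coreceptor. Of the whole set, only 9 members had a peak in all 21 libraries other than those of GSK-126, whereas 285 kept promoters did.

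By function the members were spread over many gene families. Of the 390, 276 were in none of the lists used here, and the share of members among list promoters with a peak in all 3 DMSO libraries is read against 20.6% over all promoters. Hedgehog pathway genes had 5 members of 9: Gli2, the main transcriptional activator of the pathway, Hhip, a hedgehog-binding antagonist, Evc and Evc2, which act at the primary cilium and share most of a window, and Disp1, which releases the ligand and was named after its values were seen. Of the other hedgehog genes, Dhh kept a peak in all 3 GSK-126 libraries, and Gli1, Gli3 and Scube2 had a peak in 1 or 2 of them. Granule neuron precursor genes had 4 members of 12, Atoh1, Gli2, Hhip and Myc, and 1 kept promoter, Cdk6, so that 2 of these 4 also stand in the hedgehog list. Cadherins and protocadherins had 7 members of 18 and 2 kept promoters; the members include Celsr1 and Fat3, large cadherins of planar polarity and tissue growth, and Cdh20. Mature granule neuron genes had 1 member of 3, Tiam1, an activator of Rac. Extracellular matrix genes had 15 of 63, which include Vcan and Bcan, 2 proteoglycans of neural matrix, and the proteases Adamts3 and Adamts14.

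In 9 other lists members made up 0 to 22.4% of the promoters with a peak in all 3 DMSO libraries. Solute carriers had 6 members of 59 and 32 kept promoters, neuropeptides and hormones 2 of 22 (Nppc and Rln3) and 13 kept, and genes of epithelial junctions 2 of 27 (Cldn1 and Gja1) and 15 kept. Muscle and actin genes had 0 of 12 with 7 kept, glutamate, GABA, glycine and nicotinic receptors 0 of 12 with 3 kept, and the Notch pathway 0 of 6. The Wnt pathway had 4 of 26, the secreted antagonist Frzb, the agonist Rspo2, the nuclear effector Tcf7l2 and Wls, which carries Wnt ligands to the cell surface, and 13 kept promoters such as Dkk1. Receptors of the monoamine, purine, lipid and peptide families had 17 of 76 and 30 kept, with Ednrb and Npy2r among the members, and immune genes 11 of 54 and 27 kept. The remaining lists of some size lay near the share of all promoters, with 7 of 30 growth factors and receptor tyrosine kinases, 8 of 37 other developmental transcription factors, 5 of 27 BMP and TGF-beta genes, 5 of 22 cation channels, 4 of 23 potassium channels and 3 of 15 axon guidance genes as members. The counts per list are small, and no list was tested.

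**Figure D2:**
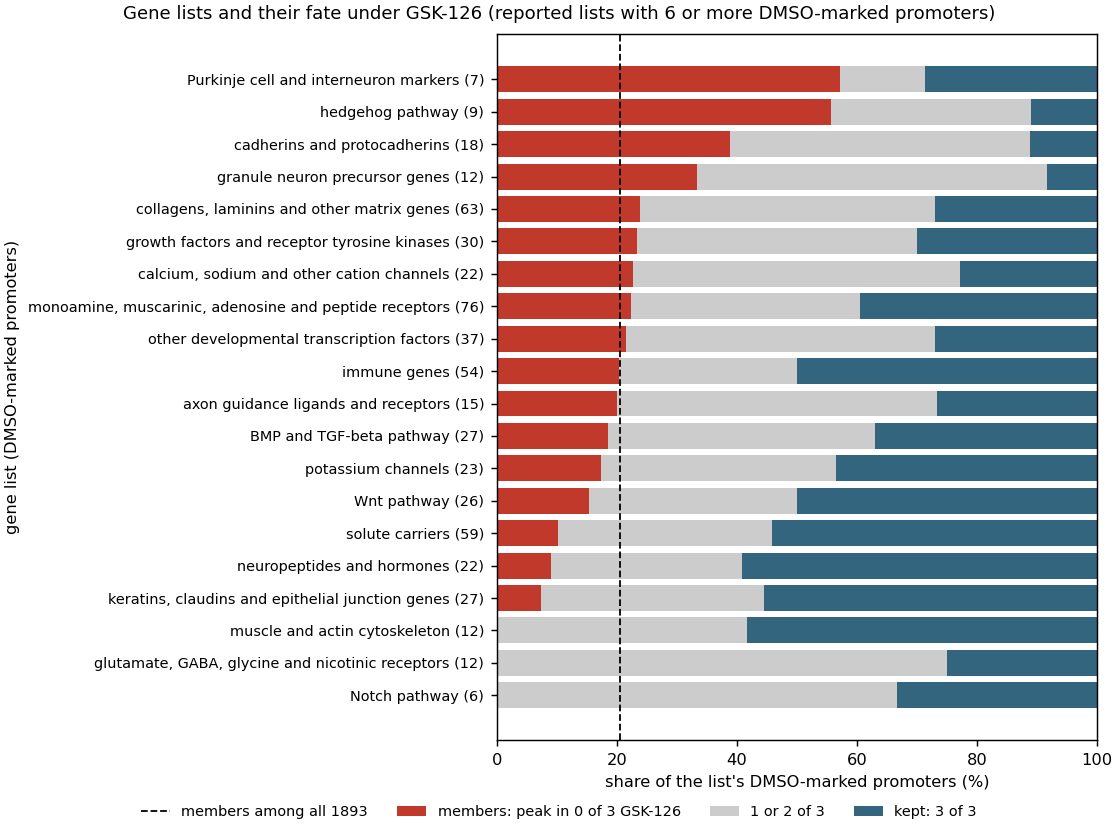
Share of each gene list's promoters with a peak in all 3 DMSO libraries (number in parentheses) that were members, had a peak in 1 or 2 GSK-126 libraries, or were kept, for lists with 6 or more such promoters, without those not reported here; the dashed line marks the members' share of all 1893 promoters, 20.6%. Hedgehog genes stand at 55.6% and solute carriers at 10.2%, and lists may share genes.

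Markers of other cells that a cerebellar culture could hold were checked in the same lists. Of 9 granule neuron markers, 5 had no peak in any library and none had one in 12 or more. Of 15 markers of glia, microglia and vessels, 10 had no peak anywhere and 2 had one in 12 or more libraries. Of 10 markers of Purkinje cells and interneurons, 5 had none and 3 had one in 12 or more. Pdgfra, a marker of oligodendrocyte precursors, and Car8, a Purkinje cell gene, were members. Cldn5 and Sst kept a peak in all 3 GSK-126 libraries, and Mbp and Pvalb had one in 1. Sox10 had a peak in all 3 GSK-126 libraries and in 1 DMSO library of that experiment. Zic2 and Rbfox3 had one in 1 and 2 GSK-126 libraries and in 0 of these DMSO libraries. Calb1 and Cspg4 had one in 2 and 1 of these DMSO libraries and in 0 GSK-126 libraries. From a longer list of Purkinje cell and interneuron markers, 4 of 7 promoters with a peak in all 3 DMSO libraries were members: Car8, Foxp2, Kit and Lypd6. Npy and Sst were kept promoters, and the members' share over all 1893 promoters was 20.6%. The count is small and was not tested. The part of these markers in the changes over time was not tested either.

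Over the time course the members' share of all promoters with a peak was lowest at DIV1. Among the full lists 22.8%, 70.3% and 59.0% of the 390 had a peak at DIV1, 37.9%, 74.4% and 92.8% at DIV3, 78.7%, 65.4% and 83.8% at DIV5 and 53.6%, 43.1% and 67.7% at DIV7. These shares follow how much was called in each library, so they are better read against all promoters with a peak in the same library. Members were 5.26%, 7.60% and 7.47% of those at DIV1, 9.50%, 10.4% and 9.45% at DIV3, 11.5%, 11.3% and 11% at DIV5 and 13.3%, 11.5% and 12.5% at DIV7. On this measure the 3 libraries of DIV1 lay below all later ones, those of DIV3 below those of DIV5, and DIV5 reached into the range of DIV7. Read only against those of the 1893 promoters with a peak in the same library, the days were less separate. Members were then 8.68%, 16.1% and 14.4% at DIV1 and 12.5%, 17.3% and 19.6% at DIV3. At DIV5 they were 18.5%, 16.6% and 18.7%, and at DIV7 17.0%, 15.9% and 18.6%. DIV1 then overlapped with DIV3 and DIV7, and DIV3 with DIV5.

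The order read against all promoters was also seen with every time course library limited to its strongest peaks up to 1.11 Mb. Mean coverage of the members was 0.878% ± 0.0809 (SD, n = 3) at DIV1, 1.44% ± 0.139 at DIV3, 1.95% ± 0.211 at DIV5 and 2.1% ± 0.299 at DIV7. DIV1 libraries (0.785% to 0.929%) did not overlap with DIV3 (1.32% to 1.59%), nor DIV3 with DIV5 (1.73% to 2.15%), but DIV5 overlapped with DIV7 (1.83% to 2.42%). The kept promoters had 6.12% ± 0.634, 6.32% ± 0.250, 5.80% ± 0.127 and 5.40% ± 0.775 in the same order. On the full lists, which differ in length, the members' mean was 3.69%, 5.49%, 6.09% and 3.01%, so that DIV7 then lay below DIV1. Members and kept promoters were both required to have peaks at DIV5 in DMSO libraries, and the part of that choice in the differences between days was not tested. Chosen without GSK-126 replicate 3, the members were 1.27 points higher at DIV7 than at DIV1 on the equal-length lists, against 1.22 as chosen here. No p-value is given for these means over chosen promoters.

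**Figure D3:**
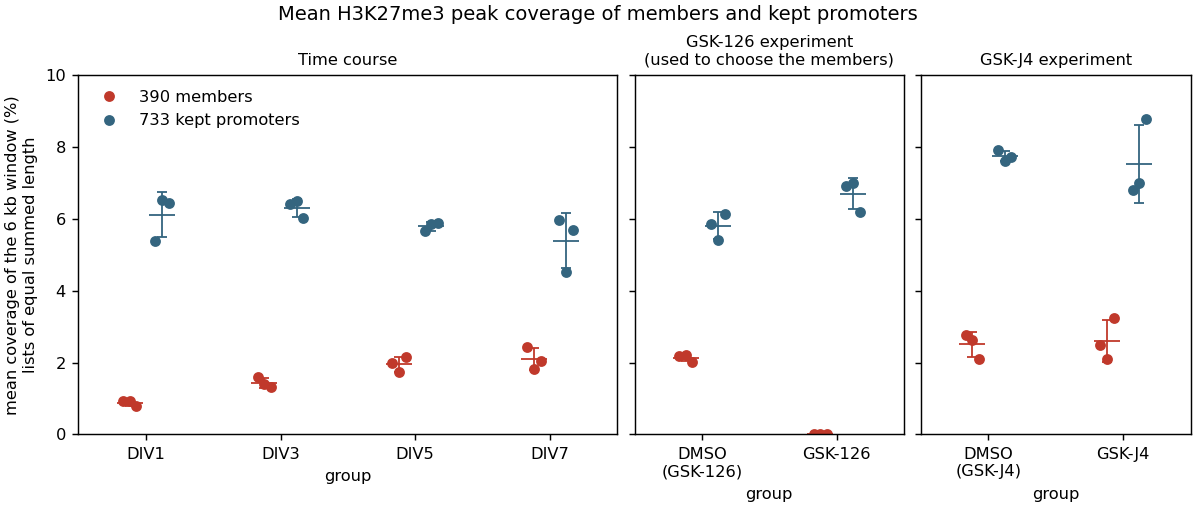
Mean coverage of the 6 kb window in each library (points) for 390 members and 733 kept promoters, on lists of equal summed length within each experiment, with the mean and SD of 3 libraries (lines). Members lie at 0.785% to 0.929% at DIV1 and 1.83% to 2.42% at DIV7, and at 0 in GSK-126 by the rule.

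More members were higher than lower at DIV7, but the size of the difference was uneven and was larger at members with wide DMSO coverage. On the equal-length lists coverage was higher at DIV7 than at DIV1 at 58.7% of the members and lower at 18.2%, with a median difference of 0.658 percentage points. Over the 3521 promoters covered in any time course library the shares were 43.7% and 40.8% and the median was 0. Over the 1893 promoters with a peak in all 3 DMSO libraries, which share the members' requirement of a peak at DIV5, they were 51.3% and 34.9% and the median was 0.167. On the full lists 45.1% of members were higher and 50.8% lower with a median of -0.139, against 16.8%, 64.1% and -0.906 over 5939 promoters and 20.4%, 77.8% and -5.09 over the 1893, so the sign of the members' median depends on the list length.

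On the equal-length lists the lower level at DIV1 was most marked among members with wide DMSO coverage. In the highest quintile of DMSO coverage, the 18 members had 0.515% to 1.18% at DIV1 and 3.51% to 7.10% at DIV7, while the 261 kept promoters had 8.54% to 10.3% and 7.49% to 10.6%. In the second highest quintile the 42 members had 0.834% to 1.08% at DIV1 and 3.62% to 6.75% at DIV7, and the kept promoters 5.32% to 6.82% and 4.41% to 6.0%. At DIV7 the ranges of the 2 sets overlapped in this quintile, and at DIV1 they did not. In the lowest quintile, with 146 members, the range was 0.408% to 0.638% at DIV1 and 0.763% to 0.851% at DIV7. There DIV3 (0.350% to 0.813%) and DIV5 (0.409% to 0.736%) both overlapped with DIV1.

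**Figure D4:**
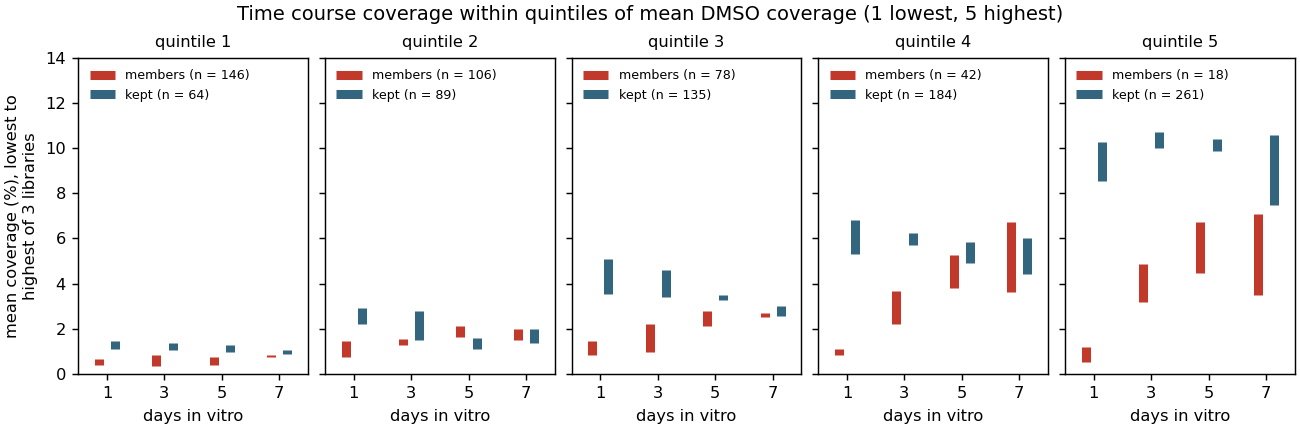
Lowest to highest of 3 libraries of the mean coverage (%, lists of equal summed length) over days in vitro for members and kept promoters, in 5 panels by quintile of DMSO coverage. At DIV1 the members' bar lies below the kept promoters' bar in every quintile, and in the second highest quintile the bars overlap at DIV7, at 3.62% to 6.75% and 4.41% to 6.0%.

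Single members took different courses. Of the 390, 92 (23.6%) had no peak in any DIV1 library, against 11 of the kept promoters. A peak in no DIV1 library and in all 3 DIV5 libraries was found at 31 members (7.95%) and 3 kept promoters (0.409%), and in no DIV1 and all DIV7 libraries at 19 members (4.87%) and 1 kept promoter. The opposite, a peak in all 3 DIV1 libraries and none at DIV7, was found at 7 members (1.79%) and 18 kept promoters (2.46%). Only 16 members (4.10%) had a peak in all 12 time course libraries, against 320 kept promoters (43.7%), and every member had one in at least 1 of the 12.

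Parva, which links integrins to actin, is one of the 19. Its coverage was 0 in the 3 DIV1 libraries, 15.4%, 12% and 17.2% at DIV3, 18.5%, 13.6% and 19.5% at DIV5 and 4.45%, 11.5% and 4.53% at DIV7. Chodl, a membrane lectin, was at 0 at DIV1, at 0, 6.17% and 10.9% at DIV3, at 15.7% or more at DIV5 and at 16.9%, 5.67% and 21.4% at DIV7. Both were thus above 0 in all libraries of DIV5 and DIV7. B3gnt5, a glycosyltransferase of glycolipid synthesis, Kirrel, an adhesion protein of the immunoglobulin family, Matn2, a matrix protein, and Pde5a, the cGMP phosphodiesterase, were likewise without a peak at DIV1 and had one in every DIV5 and DIV7 library. The opposite course was that of Coro2a, an actin-binding coronin, with 12.1%, 21.8% and 24.1% at DIV1, 13.7%, 13.8% and 23.5% at DIV3, 12.2%, 0 and 17.9% at DIV5 and 0 in all 3 DIV7 libraries. Spon1, a secreted protein of the floor plate that guides axons, had 3.25%, 22.0% and 19.8% at DIV1 and 0 at DIV7, and Wipf3, Kcnt1, Raver2, Rgcc and Pdgfra also had a peak in all DIV1 and in no DIV7 library.

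The precursor genes had variable coverage outside the experiment that chose them. Atoh1 had 9.10%, 12% and 14.4% in the DMSO libraries of that experiment. In the time course it had 0, 6.47% and 0 at DIV1, 0, 2.92% and 5.77% at DIV3, 3.33%, 1.15% and 13.1% at DIV5, and 0, 2.97% and 6.57% at DIV7. DIV5 was the day on which all 3 libraries had a peak at Atoh1, and the libraries of the 4 days overlapped. Gli2 was at 0 in the 3 DIV1 libraries and had a peak in 1 library of DIV3, 2 of DIV5 and 1 of DIV7, the highest being 6.92%. Hhip had a peak in replicates 2 and 3 of each day and in no replicate 1. Myc, a driver of precursor proliferation, had 0, 5.80% and 6.73% at DIV1, 2.27%, 18.9% and 22.2% at DIV3, 5.00%, 4.20% and 15% at DIV5 and 3.35%, 0 and 7.40% at DIV7. Evc and Evc2, with 1 value for both, went from 0, 2.45% and 5.78% at DIV1 to 11.3%, 5.90% and 14.8% at DIV5 and 3.42%, 7.13% and 10.1% at DIV7. Otx2, a homeobox factor of the anterior brain, had 0, 3.9% and 12.1% at DIV1 and 0 in all 3 DIV7 libraries, as did Gbx1 at DIV7. Epop, a protein that associates with Polycomb repressive complex 2 itself, had 0, 10.1% and 15.4% at DIV1, 6.58%, 11.5% and 12.9% at DIV3 and 0 in all DIV5 libraries of the time course, although all 3 DMSO libraries of the same day had a peak there by the rule.

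**Figure D5:**
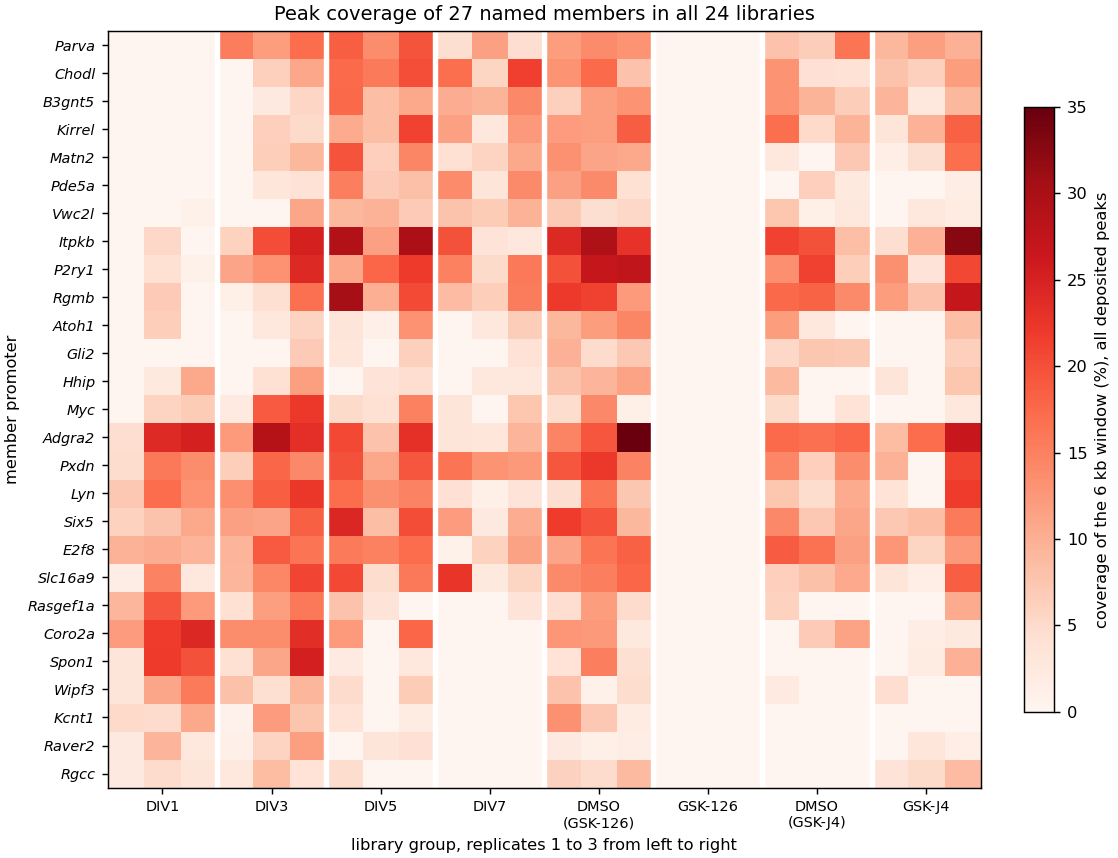
Coverage of the 6 kb window (%, colour, all deposited peaks) at 27 named members (lines) in all 24 libraries (columns, 3 replicates per group). The columns of GSK-126 are 0 by the rule; Parva to Pde5a are at 0 at DIV1, and Coro2a to Rgcc at 0 at DIV7.

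Few of these differences passed a test across all promoters. On the lists of equal summed length 217 of the 390 members had coverage in at least 3 of the 12 libraries and were tested with limma among 1794 promoters, and 173 were not tested. Between DIV1 and DIV7 limma called 1 member higher (0.446% of all tested promoters) and 1 lower (0.557% of all). Both, Vwc2l and Rasgef1a, passed the filter only through the group where they are high, so their calls are a description and support nothing. Leaving out replicate 1 of every day, whose deposited peaks are named differently from those of replicates 2 and 3, took the calls from 2 to 0 members and from 18 to 4 promoters. Vwc2l and Rasgef1a were then covered in fewer than 3 libraries and not tested, so the loss of their calls followed from the filter. Without adjustment 27 of the members tested were higher (12.4%) and 7 lower (3.23%) at p under 0.05, against 6.08% and 6.80% of all promoters tested. From DIV1 to DIV3, 1 member rose (0.0557% of all promoters) and 0 fell (0.279% of all), and without adjustment 6 members were higher (2.76%) and 7 lower (3.23%), against 2.95% and 4.35% of all. From DIV3 to DIV5 limma called 0 members and 0 promoters in either direction (0% of all), with a lowest adjusted p of 0.0567 among members. Without adjustment 19 members were higher (8.76%) and 4 lower (1.84%), against 3.68% and 2.68% of all. From DIV5 to DIV7 the call was 1 member higher (0.279% of all promoters), again Vwc2l, and 0 lower (0.0557% of all), and without adjustment 13 members were higher (5.99%) and 8 lower (3.69%), against 3.07% and 2.45% of all. These counts are over members that passed the filter, some of them through the days on which they are high, and are a description. A difference needed to be wide to be seen, since the 95% interval of a member's difference reached, at the median, 5.40 percentage points to either side.

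The member called higher at DIV7 was Vwc2l, a secreted protein with von Willebrand C domains. On the equal-length lists its coverage was 0 in all libraries of DIV1, DIV3 and DIV5 and 7.68%, 6.80% and 9.62% at DIV7. The difference was 8.03 percentage points over DIV1 and the same over DIV5, and since no library outside DIV7 was covered, Vwc2l was in the fit only because DIV7 was high. With any DIV7 library left out it was covered in 2 libraries and was not tested. On the full lists the groups were ordered differently, with 0, 0 and 0.850% at DIV1, 0, 0 and 11% at DIV3, 9.10%, 9.63% and 6.97% at DIV5 and 7.68%, 6.80% and 9.62% at DIV7, where DIV7 was not above DIV5 and limma's adjusted p for DIV7 over DIV1 was 0.171.

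The member called lower at DIV7 was Rasgef1a, an exchange factor of the Ras family. Its full-list coverage was 9.28%, 19.4% and 12.3% at DIV1, 4.20%, 11.8% and 15.9% at DIV3, 7.85%, 3.47% and 0 at DIV5 and 0, 0 and 3.43% at DIV7, so that the DIV1 and DIV7 libraries did not overlap. On the equal-length lists the difference between DIV7 and DIV1 was -9.40 percentage points, but outside DIV1 only 2 libraries were covered, so that it too was in the fit only through the day on which it is high. On the full lists limma's adjusted p was 0.136. Frzb, the Wnt antagonist, which was also covered in 3 libraries outside DIV3, rose from DIV1 to DIV3 by 10.7 percentage points on the equal-length lists (7.20 to 14.1, adjusted p = 0.0249). Its full lists gave 5.47%, 14.6% and 8.80% at DIV1 and 9.77%, 9.07% and 13.2% at DIV3, which overlap, with an adjusted p of 1.00. Fits without DIV7 replicate 1 called 0 members between DIV1 and DIV7, those without DIV1 replicate 3 or DIV7 replicate 3 called 1 each (Vwc2l, and in its place Sash1), and that without DIV7 replicate 2 called 2 others, Pde5a and Eif4ebp1.

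With GSK-J4 the members differed from DMSO by less than the spread between libraries. In that experiment 67.7%, 52.1% and 57.7% of the members had a peak in the DMSO libraries and 50.0%, 51.0% and 83.8% in the GSK-J4 libraries. They were 12.6%, 10.9% and 11.4% of all promoters with a peak in DMSO and 11.7%, 11% and 12.4% in GSK-J4, so the groups overlapped. GSK-J4 replicate 3 covered 3.11 Mb and the other 5 libraries of the experiment 1.40 to 2.08 Mb. Limited to 1.40 Mb, the members' mean coverage was 2.78%, 2.63% and 2.11% in DMSO and 2.48%, 2.09% and 3.23% in GSK-J4, and the kept promoters' was 7.92%, 7.63% and 7.72% against 6.81%, 6.99% and 8.78%. Replicate 3 was the highest GSK-J4 library in both sets also after this limit. Coverage was higher with GSK-J4 at 45.4% of the members and lower at 42.8%, with a median difference of 0, against 50.4%, 49.5% and 0.0278 points over the 2970 promoters covered in the experiment and 43.4%, 49.3% and 0 over the 1893.

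No member passed the test for GSK-J4. Since a block of the KDM6 demethylases at this dose was not shown, their part at the members was not tested. Of the 188 members tested among 1524 promoters, limma called 0 higher and 0 lower (0% of all promoters in each direction), with a lowest adjusted p of 0.975. Without adjustment 3 members had more and 3 less coverage at p under 0.05 (1.60% of those tested in each direction), against 2.17% and 2.62% of all promoters. The other 202 members had coverage in too few libraries. The differences of single members ran from -9.27 to 7.27 percentage points, and their 95% intervals reached 6.54 points to either side at the median, so that changes of a few points could not be detected. The largest was at Gja1, the gap junction gene connexin 43, whose full-list coverage was 10.9%, 11.7% and 12.2% in DMSO and 2.03%, 4.98% and 19.2% in GSK-J4.

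By peak presence, 80 members (20.5%) had a peak in all 6 libraries of the GSK-J4 experiment, against 476 kept promoters (64.9%), and 19 members had one in none. A peak in all 3 DMSO and in no GSK-J4 library was found at 1 member, Tcf7l2, with 6.47%, 1.03% and 5.32% in DMSO. The opposite was found at 5 members, Igf2bp3, Pam, Podxl, Rgcc and Scn1a, of which all but Rgcc were named after their values were seen, and at which the highest GSK-J4 coverage was 8.70%. Atoh1 had 11.9%, 2.78% and 0 in these DMSO libraries and 0, 0 and 8.25% with GSK-J4. Gli2 had 5.28%, 7.35% and 7.05% in DMSO and 0, 0 and 6.20% with GSK-J4, which overlap, and it was not tested for lack of coverage on the equal-length lists.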

How the data were processed

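H3K27me3 CUT&RUN peak lists of 24 libraries in 8 groups of 3 replicates were used, grouped by their titles. The sources call replicates biological. The authors used Trimmomatic 0.38 and FastQC on the reads, STAR 2.7.2b for alignment to mm10, and MACS2 2.1 to call broad peaks in each library at a false discovery rate of 0.1; the control used for the calls is not given in the sources used here. Their differential tests used DESeq2 1.36.0 on read counts, which were not used here. The deposited lists give a fold enrichment, a ratio over local background, for each peak. The deposited lists also give −log10 p and −log10 q values, and the lowest −log10 q was 1.00. Read depth is unknown, and intervals that need it are left out.

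A peak overlapping a promoter window of 6 kb by at least 1 bp counted as present; windows came from the GENCODE annotation of mm10 for 21938 protein-coding genes, and sequences from the RefSeq GRCm38.p6 genome. Coverage was the percentage of a window under peaks. For tests over time and for GSK-J4, each list was limited to its strongest peaks by −log10 p, to 1.11 Mb and 1.40 Mb (1.07 Mb for GSK-126, as an alternative), which gives relative levels. Promoters covered in at least 3 libraries were fitted with limma 3.58.1 in R 4.3.3 (lmFit, robust eBayes, two-sided, Benjamini-Hochberg, threshold 0.05), the 12 time course libraries in one fit and the 6 GSK-J4 libraries in another. p-values measure the spread between these libraries. The step was tried on simulated normal values without zeros. Real coverage held many zeros, so the simulation does not show how the fit behaves on them. Tables and sequences were read with Python 3.11.15, pandas 2.3.3 and pysam 0.24.0.

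The members, the gene lists and the tests were chosen with earlier results of these data known. Named genes, without models named Gm or ending in Rik, were members among the study's example genes, the 10 with the widest DMSO coverage, every member called by limma, the 6 with peaks in most time course libraries, up to 6 with peaks in all DIV1 and no DIV7 libraries and up to 6 the other way, up to 4 per gene list, and those at the edge of the rule; other genes named were chosen after their values were seen; some genes and lists are not reported here. Up to 10 stretches were planned. Printing was stopped after the first 6 named members with a shared core of sufficient length outside untranslated exons. Named members after these were not examined for printing. Alternatives were the full lists, only peaks whose −log10 q reached 2, a ranking on fold enrichment, narrower windows of 1 kb to either side, a filter of 1 covered library, the replicate number as a block, and leaving out each library. Those on mean coverage, and leaving out replicate 1 of every day, were chosen after seeing the data; in the time course, replicate 1 lists name their peaks differently from those of replicates 2 and 3, and what this reflects is not given in the sources used here.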

Additional observations from a re-analysis of the deposited data

How the results depend on the processing

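The number of members was 390. It was 32 on lists of equal summed length, 24 at a −log10 q of at least 2 (8 of them members) and 343 with windows of 1 kb to either side. Promoters with a peak in all 3 DMSO libraries then numbered 251, 93 and 1541, against 1893. Members made up 12.7%, 25.8% and 22.3% of them, against 20.6%. Leaving out 1 library of the experiment gave 535, 466 and 590 without each DMSO library and 625 and 470 without GSK-126 replicates 1 and 3, and members then made up 22.6% to 33.0% of the promoters with a peak in every DMSO library used, against 20.6%. Members called between DIV1 and DIV7 numbered 2, and 0 on the full lists, 0 at a −log10 q of at least 2, 0 when ranked by fold enrichment, 4 for promoters covered in at least 1 library, 0 without replicate 1 of every day and 0 to 3 when 1 library was left out. All promoters called numbered 18, and 40, 4, 5 and, without replicate 1 of every day, 4 under the same settings, and 0 to 33 when 1 library was left out. Vwc2l and Rasgef1a were not tested without replicate 1 of every day, since too few libraries then covered them. The cause of the other differences was not tested. For GSK-J4 1 promoter, no member, was called at a −log10 q of at least 2 and 0 otherwise. Mean coverage of the members was 1.08 points higher at DIV5 than at DIV1, 3.06 for members chosen on equal-length lists and 2.41 on full lists. For DIV7 over DIV1 it was 1.22, with 4.05 for members chosen on equal-length lists and -0.671 on full lists, where the sign turns. For GSK-J4 over DMSO it was 0.0935, and 0.671 on full lists. Without GSK-126 replicate 3 in the choice these were 1.15, 1.27 and 0.102. The members' median change ran from -0.992 to 0.658 points for DIV7 over DIV1 and from -0.762 to 1.34 for GSK-J4 over DMSO across settings, which includes both signs. Vwc2l for DIV7 over DIV5 was -0.533 points on full lists, against 8.03, and has no value without a DIV7 library, since it was then covered in 2 libraries and not tested.

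With the replicate number as a block (replicate block), 2 members and 18 promoters were called between DIV1 and DIV7, both members and 17 of the promoters the same as without it, and 0 for GSK-J4; the adjusted p of Vwc2l for DIV7 over DIV5 became 0.0774 and that of Frzb for DIV3 over DIV1 0.0728. Deviations of same-numbered libraries from their group means correlated at -0.0688 to 0.157 in the time course and 0.0272 to 0.0335 in the GSK-J4 experiment. Every GSK-J4 experiment library, 6 of 6, correlated best with its own number and 7 of 12 time course libraries did, which is a hint from the data and no pairing by design.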
